A study of Mus musculus with 29 samples.

Results

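The genes described are 10 histone demethylases of the JmjC class outside the KDM5 family: Kdm2a, Kdm2b, Kdm3a, Kdm3b, Jmjd1c (KDM3C), Kdm4a, Kdm4b, Kdm4c, Kdm6a (UTX) and Kdm6b (JMJD3). They were chosen by symbol from the Ensembl identifiers of the count table, and all 10 are among its 11959 genes. The cells sequenced were 3T3-L1, a mouse embryo fibroblast line committed to the adipocyte lineage, which forms fat cells when confluent cultures receive a hormonal cocktail. Confluent preadipocytes of this line received 10 µM KDM5-C70 (C70), an inhibitor of the KDM5 demethylases, or its solvent DMSO (vehicle) from day -2 to day 0. Cells of the day 0 groups were collected then, before differentiation medium, which the later groups received from then until day 2 at most. The other collections were on days 1, 2 and 7, and the day 7 groups changed to adipocyte medium after day 2. Among the 29 samples, each of days 0, 1 and 2 had 3 treated with vehicle and 4 with C70, and day 7 had 4 and 4, which makes 8 groups. By days 1, 2 and 7 the inhibitor was no longer being given. The cells carry no introduced allele, and the labels do not say whether replicates were separate cultures, so P values measure the spread between these samples, which may be technical.

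JmjC demethylases are dioxygenases that use Fe(II), oxygen and 2-oxoglutarate to oxidize a methyl group on a histone lysine, which then leaves as formaldehyde. The KDM2 enzymes act on H3K36, the KDM3 enzymes on mono- and dimethylated H3K9, the KDM4 enzymes on trimethylated H3K9 and H3K36, and the KDM6 enzymes on H3K27, whereas KDM5, the intended target of C70, acts on H3K4. H3K9 and H3K27 methylation mark silenced genes, and removing these marks is part of switching on the fat cell program. The question for these genes is how their mRNA levels ran through differentiation in vehicle cells, and how far the levels differed after inhibition of their KDM5 relatives. Only mRNA was measured here, not enzyme activity or histone marks.

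Samples held 16320275 to 24037170 counts, and levels are given as CPM, the counts scaled to the same library total after TMM normalization. The deposited labels call all cells adipocytes, but at day 0 the late fat cell markers Adipoq and Plin1 were close to 0, at 0.283 ± 0.110 CPM and 0.314 ± 0.129 CPM (SD, n = 3 vehicle samples), as were Cidec and Retn. The other markers of that list were present in these samples, with 1237 CPM of Lpl, 53.4 CPM of Pparg, 50.6 CPM of Fabp4 and 12.2 CPM of Cebpa. At day 7 in vehicle cells Adipoq and Plin1 stood at 1340 ± 189 CPM and 745.2 ± 12.03 CPM (SD, n = 4). Markers also moved with C70. The sum of 8 of 8 listed adipocyte markers at day 2 ran from 22540 to 23440 CPM in vehicle and from 12720 to 14180 CPM in C70 samples, and the sum of 7 of 8 listed preadipocyte markers from 3442 to 3514 CPM and from 5879 to 6248 CPM. At day 1 the adipocyte sum ran from 5088 to 5357 CPM in vehicle and from 3179 to 3303 CPM in C70, at day 0 from 1288 to 1410 CPM and from 1470 to 1523 CPM, and at day 7 from 23010 to 27190 CPM and from 24990 to 27410 CPM. The preadipocyte sum ran from 20410 to 21080 CPM and from 20010 to 21970 CPM at day 0, from 8192 to 9085 CPM and from 9061 to 9989 CPM at day 1, and from 2219 to 2906 CPM and from 4747 to 5476 CPM at day 7. Retn alone of these markers was at 0 in some samples, all of them at day 0. Of markers for other cells, 2 of 6 for macrophages, 0 of 5 for endothelium and 1 of 5 for muscle are in the table, with macrophage sums between 3.069 and 26.84 CPM, highest in C70 samples of day 0, and muscle (Des) between 1.826 and 50.92 CPM, highest in vehicle samples of day 7. The part of any of these in the values below was not tested. In such bulk samples, fewer cells of a type and less RNA per cell cannot be told apart. At day 7, vehicle replicate 1 stood apart from the other 3 vehicle samples and held the lowest level in its group for 10 of 10 demethylase genes, so the C70 differences of day 7 are also given without it for each gene.

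**Figure D1:**
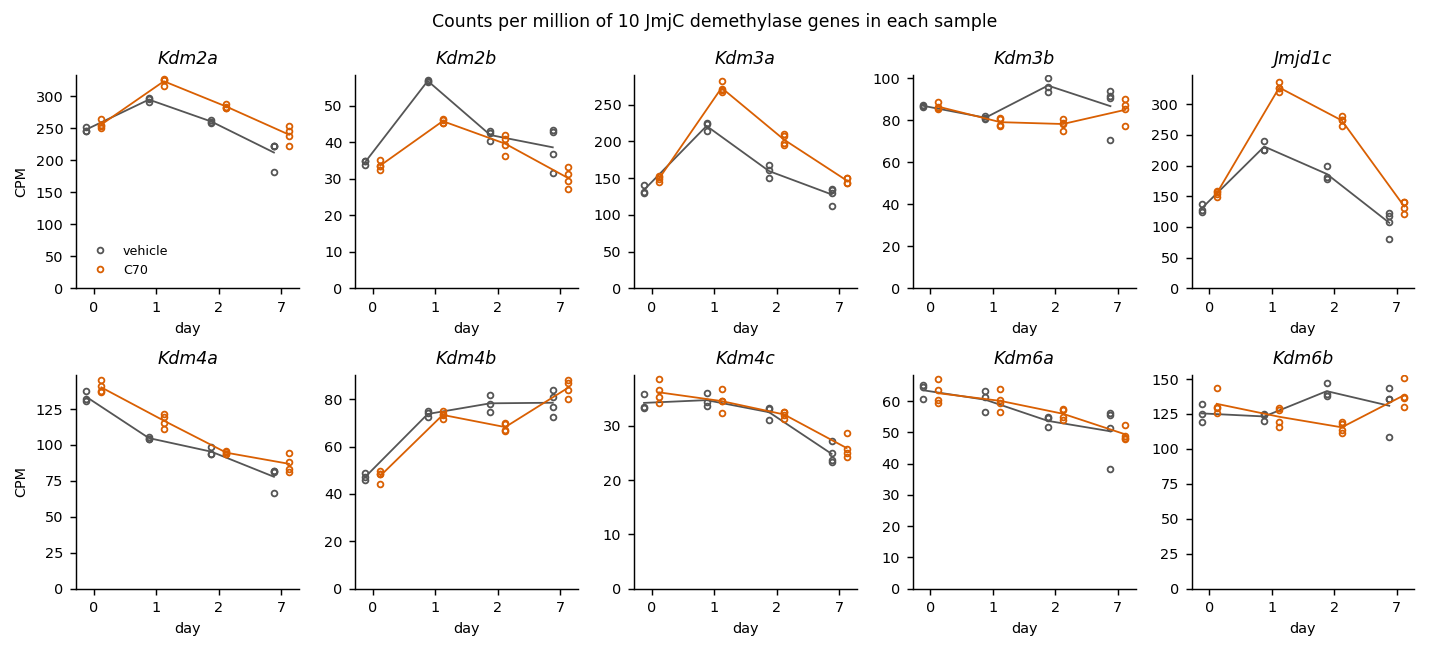
Level of each of the 10 genes in every sample, in CPM on a linear axis from 0, against day (evenly spaced), for vehicle (grey circles) and C70 (orange circles), with lines through the group means. Kdm3a and Jmjd1c peak at day 1 with C70 above vehicle, Kdm4a falls from day to day, Kdm4b stays high after day 1, and the lowest vehicle circle at day 7 is the same library in all 10 panels.

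All 10 genes were well covered, with counts per sample from 402 for Kdm4c at its lowest to 6899 for Jmjd1c at its highest. Divided by the length of each gene's merged exons in kilobases, levels at day 0 in vehicle cells ran from 23.1 CPM per kb for Kdm4a down to 3.18 CPM per kb for Kdm2b. Between them came Kdm6b at 18.03, Kdm2a at 17.2, Kdm3a at 16.3, Kdm4b at 9.63, Kdm6a at 7.57, Jmjd1c at 7.31, Kdm3b at 6.17 and Kdm4c at 5.88 CPM per kb. In this order Kdm6b and Kdm2a, Kdm2a and Kdm3a, Kdm6a and Jmjd1c, and Kdm3b and Kdm4c overlapped in their samples, and the other neighbours did not. By day 7 the order in vehicle cells was led by Kdm6b at 18.8, Kdm4b at 16.04, Kdm3a at 15.5, Kdm2a at 14.7 and Kdm4a at 13.5 CPM per kb, and the samples of each overlapped those of the next. Without vehicle replicate 1 these 5 kept their order, at 19.9, 16.5, 16.2, 15.4 and 14.1 CPM per kb, and only Kdm4b and Kdm3a then overlapped. Kdm4a thus moved from the top of the 10 to the fifth place, while Kdm4b moved from the fifth to the second. At day 1 Kdm3a led with 26.9 CPM per kb.

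In vehicle cells 4 of the 10 genes rose and 1 fell within the first day of differentiation. A gene was called where the quasi-likelihood test of edgeR gave an adjusted P value under 0.05 and its log2 fold change was above 0.32 or below -0.32, which is the fold threshold. Kdm2b, Kdm3a, Jmjd1c and Kdm4b rose between day 0 and day 1 and Kdm4a fell, where 26.2% of all genes were called higher and 27.9% lower. At day 2 against day 0, 2 genes were higher (Jmjd1c and Kdm4b) and 1 lower (Kdm4a), against 33.4% and 32.4% of all genes. At day 7 against day 0, 1 was higher (Kdm4b) and 3 were lower (Kdm4a, Kdm4c and Kdm6a), against 36.7% of all genes in each direction, and without vehicle replicate 1 Kdm6a was not called. The list of 10 was not tested as a set, and nothing particular to it is read from these counts. From day 1 to day 2, Kdm2b and Kdm3a fell and 0 rose (background 22.3% higher and 22% lower). From day 2 to day 7, Jmjd1c and Kdm4c fell and 0 rose (26.6% higher and 26.7% lower). The median log2 fold change of the 10 genes from day 0 was 0.13 at day 1, 0.16 at day 2 and -0.15 at day 7 (-0.08 without vehicle replicate 1 of day 7), beside medians of all genes of 0.01, 0.02 and 0.01. The comparisons from day 0 share the day 0 vehicle samples.

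**Figure D2:**
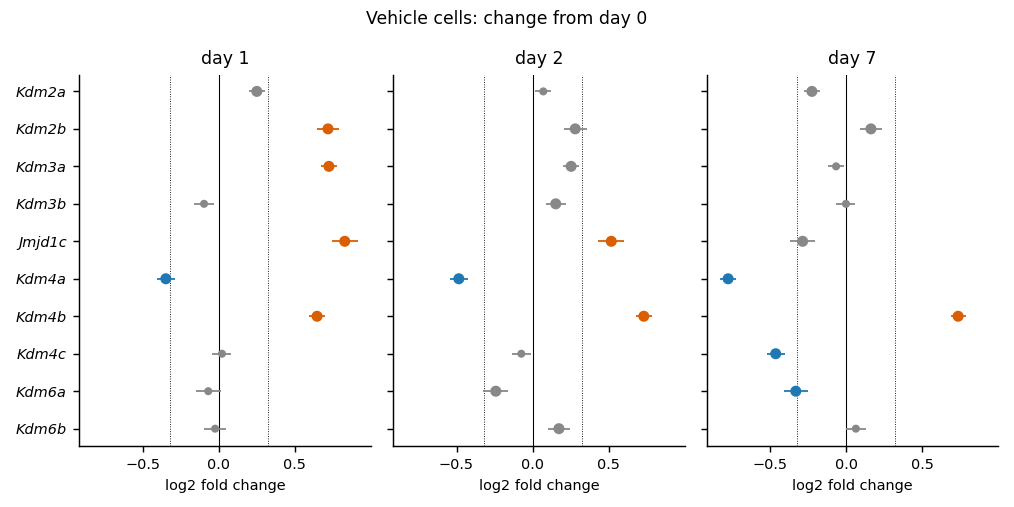
Log2 fold change of each gene in vehicle cells at days 1, 2 and 7 from day 0, with bars of 1 SE. Orange marks genes called higher, blue genes called lower and grey genes not called, large points have an adjusted P value under 0.05, and dotted lines mark the fold threshold (log2 0.32 and -0.32); Kdm4b lies right of the dotted line on all 3 days and Kdm4a left of it.

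Under C70 few of the 10 genes differed from vehicle by more than the fold threshold. At day 0, when treatment ended, 0 of 10 were called in either direction by edgeR, against 5.89% of all genes higher and 3.09% lower, and 2 had an unadjusted P value under 0.05. At day 1, Jmjd1c was higher and 0 were lower (13.6% and 7.8% of all genes). At day 2, Kdm3a and Jmjd1c were higher and 0 were lower (16.9% and 13.6%). At day 7 none was higher and Kdm2b was lower (14.3% and 4.85%). With the adjusted P value alone, and no fold threshold, 2, 5, 6 and 6 of the 10 genes passed at days 0, 1, 2 and 7, where 19.8%, 40.7%, 50.7% and 41.1% of all genes did. The median log2 fold change over the 10 genes was 0.06, -0.005, -0.02 and 0.10 on the 4 days, beside medians of all genes of -0.0004, -0.006, -0.004 and 0.004, and without vehicle replicate 1 of day 7 the last was 0.06. Day by day, C70 and vehicle samples did not overlap for 2, 5, 6 and 2 of the 10 genes, and for 34%, 48.2%, 57.2% and 29.3% of all genes. Without vehicle replicate 1 the last of these became 4 genes and 38.9%.

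**Figure D3:**
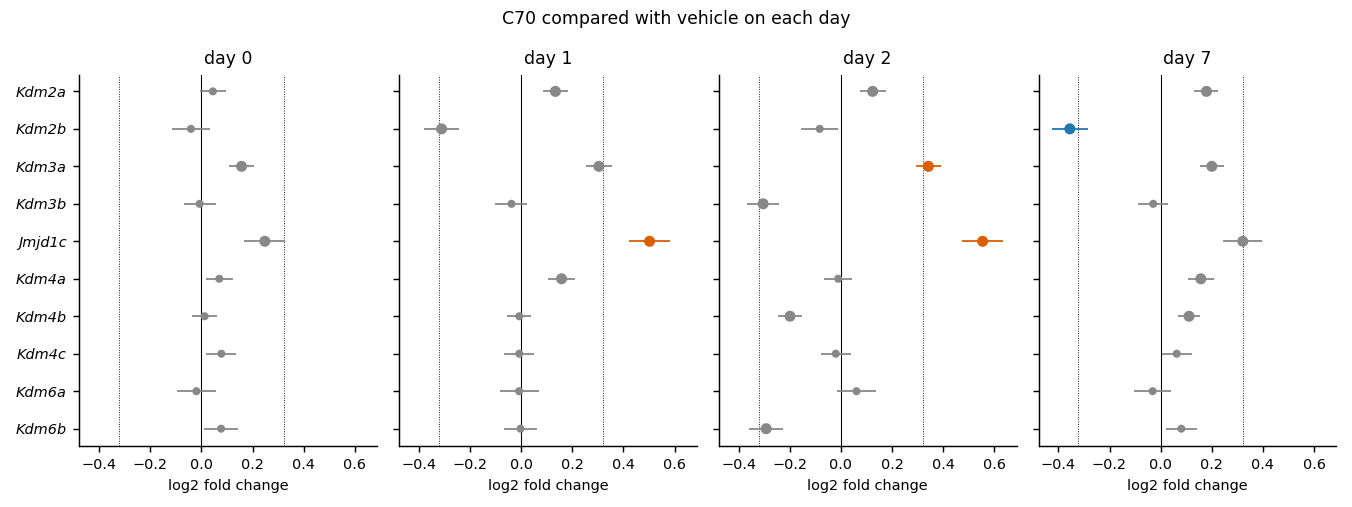
Log2 fold change of C70 over vehicle for each gene on each of the 4 days, with bars of 1 SE and the colours, point sizes and dotted lines of the vehicle plot. Jmjd1c is the gene farthest to the right on all 4 days, with 0.55 at day 2, and Kdm2b is the gene farthest to the left at day 7, with -0.36.

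Both genes called higher under C70, Jmjd1c and Kdm3a, belong to the KDM3 family. Jmjd1c encodes the largest of the 3 KDM3 proteins and lies at chr10:67096125-67256326 on the plus strand (GRCm38). In vehicle cells its level was 128.2, 124.8 and 137.9 CPM at day 0 and 240.9, 226.1 and 226.2 CPM at day 1, then 182.0, 199.5 and 177.6 CPM at day 2, and at day 7 it was 79.96, 117.5, 122.1 and 107.2 CPM. All day 1 and day 2 samples thus lay above those of day 0, and all day 7 samples below. The rise at day 1 was 0.83 ± 0.09 on the log2 scale (SE, adjusted P = 5.7e-10) and the level at day 2 was still 0.52 ± 0.09 above day 0 (2.7e-06). From day 2 to day 7 Jmjd1c fell by 0.80 ± 0.08 (adjusted P = 2.66e-10), the largest log2 change of the 10 genes in that interval, and by 0.67 without vehicle replicate 1.

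With C70, Jmjd1c stood at 153.3, 157.3, 149.4 and 158.7 CPM at day 0, 326.5, 320.8, 326.0 and 335.7 CPM at day 1, 274.7, 264.0, 275.1 and 280.7 CPM at day 2, and 131.4, 120.4, 140.9 and 140.5 CPM at day 7. On days 0, 1 and 2 each C70 sample was above each vehicle sample, while at day 7 the lowest C70 sample was below the highest vehicle sample. Jmjd1c was higher by 0.50 ± 0.08 at day 1 (adjusted P = 6.78e-06) and by 0.55 ± 0.08 at day 2 (8.61e-07), which are 1.42-fold and 1.47-fold. The differences of 0.25 ± 0.08 at day 0 (adjusted P = 0.028) and 0.32 ± 0.08 at day 7 (0.00105) were under the fold threshold, the latter by less than the rounding, so that it passed in 6 of 9 alternative fits, and without vehicle replicate 1 the day 7 value was 0.21. An antisense gene in the table, Reep3, overlaps Jmjd1c. Libraries were strand-specific, but whether counting used strand is not given in the sources used here, so reads in the shared stretch may not be told apart. Reep3 differed with C70 by 0.17, 0.16, 0.33 and 0.21 on the log2 scale at days 0, 1, 2 and 7.

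Kdm3a, the H3K9 demethylase JMJD1A, at chr6:71588972-71632990 on the minus strand, ran in parallel. Vehicle samples held 129.6, 131.5 and 140.8 CPM at day 0, 225.7, 223.4 and 214.1 CPM at day 1, 161.1, 167.5 and 150.1 CPM at day 2, and 112.7, 135.0, 130.3 and 133.2 CPM at day 7. The day 1 samples were the highest and those of day 7 overlapped day 0. Kdm3a rose by 0.72 ± 0.05 at day 1 (adjusted P = 3.24e-13) and fell by 0.47 ± 0.05 from day 1 to day 2 (6.06e-09).

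In C70 samples Kdm3a was at 148.8, 144.2, 151.3 and 153.2 CPM at day 0, 271.7, 269.9, 267.7 and 282.6 CPM at day 1, 194.8, 198.2, 209.5 and 206.9 CPM at day 2, and 143.4, 149.5, 143.8 and 150.6 CPM at day 7. On all 4 days the C70 samples lay above the vehicle samples without overlap. Only the difference at day 2 passed the fold threshold, at 0.34 ± 0.05 (adjusted P = 1.18e-06), and it was 0.30 without vehicle replicate 3 of day 2, which ended the call. The other days gave 0.16 ± 0.05 at day 0 (0.0257), 0.30 ± 0.05 at day 1 (1.12e-05) and 0.20 ± 0.05 at day 7 (0.00103). Without day 7 vehicle replicate 1 the day 7 value was 0.15.

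Kdm3a and Jmjd1c moved together across the 29 samples, with a Pearson correlation of log2 CPM of 0.95, the highest of the pairs among the 10 genes. Their levels share the libraries and the 8 groups, so this describes the courses above. The stretches before RefSeq start sites of both, and that of Kdm4a, which fell, are shown from RefSeq (GRCm38.p6), with GC boxes (GGGCGG) and CCAAT boxes (CCAAT) on either strand in capitals. Each is up to 250 bases before the first start listed, without bases inside an exon of the gene. The Jmjd1c stretch lies inside the annotated gene, before an internal RefSeq start and not at the gene's first base.
Kdm3a, chr6:71632991-71633167, minus strand: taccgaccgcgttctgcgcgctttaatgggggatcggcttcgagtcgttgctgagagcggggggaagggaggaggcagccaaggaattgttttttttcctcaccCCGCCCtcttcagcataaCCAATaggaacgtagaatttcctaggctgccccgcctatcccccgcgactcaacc
Jmjd1c, chr10:67126838-67127087, plus strand: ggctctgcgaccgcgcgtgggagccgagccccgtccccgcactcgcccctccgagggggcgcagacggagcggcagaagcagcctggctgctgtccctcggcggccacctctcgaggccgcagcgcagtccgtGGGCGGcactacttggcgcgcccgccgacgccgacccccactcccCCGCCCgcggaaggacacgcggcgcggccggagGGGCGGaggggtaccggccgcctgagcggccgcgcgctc
Kdm4a, chr4:118180044-118180293, minus strand: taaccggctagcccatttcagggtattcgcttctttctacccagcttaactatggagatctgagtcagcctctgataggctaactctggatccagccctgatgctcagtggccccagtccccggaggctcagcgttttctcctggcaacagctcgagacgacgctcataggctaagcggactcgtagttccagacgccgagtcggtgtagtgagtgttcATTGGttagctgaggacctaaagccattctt
The Kdm3a stretch of 177 bases holds 1 GC box and 1 CCAAT box, that of Jmjd1c 3 GC boxes and 0 CCAAT boxes, and that of Kdm4a 0 GC boxes and 1 CCAAT box. The full 250-base window of Kdm3a, with 73 bases in an exon of the gene, holds 2 GC boxes and 2 CCAAT boxes. Among all 32851 RefSeq windows of 250 bases, 32.7% hold a GC box and 33.8% a CCAAT box. A CRE core (TGACG) is in 17.8% of all windows and a hypoxia response core (ACGTG) in 16.6%, and the 3 stretches printed hold 0 of either on both strands. Of the stretches not printed, that of Kdm6a holds 1 CRE core and 3 hypoxia response cores, and those of Kdm2b and Kdm4c 0 of either. Windows of further starts also hold some, with 1 CRE core in the second of Jmjd1c. The second of Kdm4c holds 1 CRE core and 4 hypoxia response cores. The 250-base window of Jmjd1c has 79.6% G and C and 40 CpGs, that of Kdm3a 59.6% and 20, and that of Kdm4a 53.6% and 12. The medians over all windows are 52.4% and 6. The table was counted per gene, so it does not show which start was used. Windows were kept for 6 of the 10 genes, and the absence of a gene here does not show that it had no window. A match is a description of letters, not a bound site.

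The third KDM3 gene took another course. Kdm3b, at chr18:34777047-34838660 on the plus strand, was called in no vehicle comparison, with group means of 86.9 CPM at day 0 (SD 0.384, n = 3), 81.2 at day 1 (SD 0.767, n = 3), 96.5 at day 2 (SD 3.46, n = 3) and 86.7 at day 7 (SD 10.96, n = 4). At day 2 the vehicle samples held 95.85, 100.3 and 93.47 CPM and the C70 samples 78.29, 80.76, 75.07 and 78.79 CPM. All C70 samples were below all vehicle samples on that day, and the difference of -0.30 ± 0.06 (adjusted P = 0.000134) was under the fold threshold, and past it at -0.33 without vehicle replicate 3 of that day. On days 0, 1 and 7 the groups overlapped, with log2 values of -0.01, -0.04 and -0.03 and adjusted P values of 0.962, 0.67 and 0.723. The day 7 overlap rests on vehicle replicate 1 at 70.41 CPM. The other 3 vehicle samples held 90.84 to 94.0 CPM and the C70 samples 77.07 to 90.32 CPM, all lower, and without replicate 1 the value was -0.11 (adjusted P = 0.0297), under the fold threshold. Thus at day 2 Kdm3a and Jmjd1c were above vehicle and Kdm3b below it, and all 3 belong to the H3K9 family. Across the 29 samples Kdm3b and Kdm3a had a correlation of -0.44.

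Of the KDM2 pair, Kdm2b was called lower with C70 at day 7 and Kdm2a was not called. Kdm2b encodes the CXXC zinc finger protein that brings a variant Polycomb complex to unmethylated CpG islands, and lies at chr5:122870665-122989823 on the minus strand. Vehicle cells held 33.88, 34.97 and 34.96 CPM at day 0, 56.58, 57.1 and 56.86 CPM at day 1, 40.35, 42.61 and 43.08 CPM at day 2, and 31.66, 42.77, 43.27 and 36.84 CPM at day 7. The day 1 samples stood above all others. At day 7, replicate 1 lay below the day 0 samples and the other 3 above them, a difference from day 0 of 0.16 ± 0.07 (adjusted P = 0.0405) that was 0.25 without replicate 1 (0.000331), both under the fold threshold. This difference was 0.09 with upper quartile factors and 0.10 at its lowest with 1 library left out. Its adjusted P value did not stay under 0.05 in all alternatives. The rise by 0.72 ± 0.08 at day 1 (adjusted P = 7.81e-10) was followed by a fall by 0.44 ± 0.07 at day 2 (7.34e-06).

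With C70, Kdm2b reached 45.36, 46.07, 46.48 and 45.36 CPM at day 1, each sample below each vehicle sample. That difference of -0.31 ± 0.07 (adjusted P = 0.000559) was just under the fold threshold. At day 7 the C70 samples held 31.2, 27.21, 33.31 and 29.33 CPM, and 1 of them, at 33.31, was above the lowest vehicle sample at 31.66. Kdm2b was lower at day 7 by log2 -0.36 ± 0.07 (adjusted P = 0.000127). The value was -0.43 without vehicle replicate 1, and the call was lost without vehicle replicate 2 (-0.30), vehicle replicate 3 (-0.29) or C70 replicate 2 (-0.30) of that day. Samples overlapped at day 0 (-0.04 ± 0.07, adjusted P = 0.769) and day 2 (-0.08 ± 0.07, 0.353). On the same strand, Gm43411 and Gm44574 overlap Kdm2b in the annotation and are not in the table, and counting by strand would not part them from it. The antisense genes Rnf34 and A930024E05Rik, both in the table, overlap Kdm2b, and Rnf34 differed with C70 by -0.06, -0.21, -0.29 and -0.27 at days 0, 1, 2 and 7. A930024E05Rik, at a mean of 1.60 CPM, went the other way at day 2, by 0.73 (adjusted P = 0.0166), and at day 7, by 0.71 (0.0466), and gave -0.12 and 0.09 at days 0 and 1.

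Kdm2a, its paralogue at chr19:4314419-4398285 on the minus strand, was the member with the most counts in vehicle cells. It held 246.3, 246.5 and 252.2 CPM in vehicle at day 0, 298.0, 296.6 and 290.6 CPM at day 1, 258.9, 259.8 and 263.3 CPM at day 2, and 182.0, 221.9, 222.7 and 222.5 CPM at day 7. Day 1 was highest and day 7 lowest without overlap. No vehicle comparison passed the fold threshold, with log2 values from day 0 of 0.25, 0.07 and -0.23, the last -0.16 without vehicle replicate 1. With limma voom and quantile normalization the day 7 values passed it, at -0.37 from day 0 and -0.42 from day 2, where edgeR gave -0.30 from day 2. C70 samples held 316.0, 327.0, 325.7 and 326.3 CPM at day 1 and 283.7, 282.6, 287.6 and 282.3 CPM at day 2, above all vehicle samples of those days. At day 7 they held 238.5, 223.0, 245.2 and 254.4 CPM, the lowest of them just above the highest vehicle sample. The differences from vehicle of 0.13 ± 0.05 at day 1 (adjusted P = 0.0331), 0.12 ± 0.05 at day 2 (0.0405) and 0.18 ± 0.05 at day 7 (0.00287) were under the fold threshold, and that at day 7 was 0.12 without vehicle replicate 1. Each of these differences had an adjusted P value over 0.05 in some alternative.

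Among the KDM4 genes, the course in vehicle cells split, and none of the 3 was called under C70. Kdm4a, at chr4:118136957-118180043 on the minus strand, went from 131.9, 137.7 and 130.7 CPM at day 0 to 104.4, 105.7 and 104.2 CPM at day 1, 98.41, 93.93 and 93.52 CPM at day 2, and 66.75, 81.66, 82.02 and 80.85 CPM at day 7. Each day lay below the one before it without overlap. Its fall from day 0 was 0.35 ± 0.06 at day 1 (adjusted P = 2.98e-06), 0.49 ± 0.06 at day 2 (5.85e-09) and 0.78 ± 0.05 at day 7 (2.42e-14). Without day 7 vehicle replicate 1 the last value was -0.71.

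Kdm4b, at chr17:56326062-56402870 on the plus strand, went the other way. It held 48.66, 45.78 and 46.98 CPM in vehicle cells at day 0, 74.06, 74.81 and 72.36 CPM at day 1, 78.13, 81.94 and 74.69 CPM at day 2, and 72.39, 80.92, 76.83 and 83.87 CPM at day 7. All later samples were above all those of day 0, and the later days overlapped in part. It rose by 0.65 ± 0.05 at day 1 (adjusted P = 2.35e-12), 0.73 ± 0.05 at day 2 (6.39e-14) and 0.74 ± 0.05 at day 7 (1.13e-14), which was 0.77 without vehicle replicate 1. Kdm4a and Kdm4b had the lowest correlation of the pairs among the 10 genes, -0.81 over 29 samples. Kdm4c, at chr4:74242497-74405860 on the plus strand, stayed between 31.1 and 36.09 CPM in vehicle samples of days 0, 1 and 2 and was at 23.39, 27.16, 24.99 and 23.74 CPM at day 7, all below the earlier samples. Its fall from day 0 was 0.46 ± 0.06 (adjusted P = 3.04e-08), and from day 2 it was 0.39 ± 0.06 (1.33e-06). Without vehicle replicate 1 of day 7 these values were -0.44 and -0.35.

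With C70, Kdm4b was at 69.86, 67.15, 66.51 and 69.31 CPM at day 2, below all 3 vehicle samples, a difference of -0.20 ± 0.05 (adjusted P = 0.000857) under the fold threshold. At day 7 it was at 86.78, 80.09, 84.0 and 88.09 CPM, a difference of 0.11 ± 0.04 (0.0457) that was 0.08 without vehicle replicate 1 (0.133). Kdm4a differed by 0.16 ± 0.05 at both day 1 (0.0194) and day 7 (0.0146), the latter 0.10 without vehicle replicate 1 (0.0633). Kdm4c gave 0.08, -0.01, -0.02 and 0.06 on the 4 days, with adjusted P values from 0.397 to 0.938, and 0.04 at day 7 without vehicle replicate 1.

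The KDM6 pair demethylates H3K27. Kdm6a is on the X chromosome at chrX:18162575-18279936, plus strand, and its product is also a subunit of the KMT2C and KMT2D complexes that methylate H3K4. Its vehicle levels were 60.63, 65.21 and 64.53 CPM at day 0 and 38.23, 56.24, 55.42 and 51.36 CPM at day 7, which did not overlap. Kdm6a fell by 0.33 ± 0.08 over that time (adjusted P = 0.000243). The call was lost without day 7 vehicle replicate 1 (-0.22), day 0 vehicle replicate 2 (-0.31) or day 0 vehicle replicate 3 (-0.32). C70 and vehicle samples of Kdm6a overlapped on all 4 days, with log2 values of -0.02, -0.01, 0.06 and -0.03, SEs of 0.07 to 0.08 and adjusted P values from 0.539 to 0.949. Without vehicle replicate 1, the day 7 value was -0.14 (adjusted P = 0.0355), under the fold threshold, and the samples still overlapped.

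Kdm6b, at chr11:69398508-69413675 on the minus strand, was not called in any vehicle comparison, with group means of 125, 123, 141 and 131 CPM at days 0, 1, 2 and 7. Its C70 and vehicle samples overlapped at days 0, 1 and 7. At day 2 they did not: vehicle held 137.6, 147.0 and 139.4 CPM, and C70 117.8, 119.2, 113.4 and 111.3 CPM, a difference of -0.29 ± 0.07 (adjusted P = 0.00043) under the fold threshold. The other days gave 0.08, -0.002 and 0.08, and the day 7 value was 0.01 without vehicle replicate 1 (adjusted P = 0.925). An antisense transcript, Kdm6bos, overlaps Kdm6b in the annotation, with the same limit on strand. That limit also holds for Kdm3b (Gm26538), Kdm4a (Gm23382) and Kdm4c (A230083N12Rik), whose antisense neighbours are not in the table.

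Whether the C70 difference itself changed between days was tested by interaction terms. Between days 0 and 1, 0 of 10 genes were called by edgeR, where 13.9% of all genes were, and 3 had an unadjusted P value under 0.05. Between days 0 and 2, Kdm6b was called, with -0.37 ± 0.09 (adjusted P = 0.00231), against 26.6% of all genes. Between days 0 and 7, 0 of 10 were called, against 22% of all genes, and 1 had an unadjusted P value under 0.05 (Kdm2b, -0.31 ± 0.10, adjusted P = 0.0169, and called at -0.39 without day 7 vehicle replicate 1). Between days 2 and 7, Kdm6b was called with 0.37 ± 0.09 (0.00196), against 20.9% of all genes, and it was 0.29 and not called without day 7 vehicle replicate 1. The C70 difference of Kdm6b at day 2 thus differed from those at day 0 and day 7.

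Other values with an adjusted P value under 0.05 in these comparisons, all under the fold threshold, were of pairs of days with day 2. From day 0 to day 2 they were 0.31 ± 0.11 for Jmjd1c (0.0337), 0.19 ± 0.07 for Kdm3a (0.0418), -0.30 ± 0.09 for Kdm3b (0.00829) and -0.21 ± 0.07 for Kdm4b (0.0166). From day 2 to day 7 they were 0.28 ± 0.09 for Kdm3b (0.014), 0.31 ± 0.07 for Kdm4b (0.000479) and -0.27 ± 0.10 for Kdm2b (0.0379). Without day 7 vehicle replicate 1 these 3 were 0.18, 0.27 and -0.36. Kdm2b was then called, as was Jmjd1c, which went from -0.23 (adjusted P = 0.111) to -0.35 (0.000138). In all, 7 in place of 4 genes then had an adjusted P value under 0.05 between days 2 and 7, against 35.1% in place of 30.3% of all genes, with Kdm3a, Jmjd1c and Kdm6a added. The comparisons share samples, so they are not independent of each other.

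Genes around the 10 were counted in lists by role, with the background given above. Among the other JmjC proteins, 14 of 17 listed are in the table, and on days 0, 1, 2 and 7 there were 1, 1, 1 and 0 called higher and 1, 3, 2 and 1 lower. The largest was Hr, the hairless H3K9 demethylase related to KDM3, at 1.89 CPM in vehicle and 9.91 CPM in C70 at day 2 (log2 2.40 ± 0.19, adjusted P = 7.68e-12). Jarid2, a JmjC protein without demethylase activity that binds PRC2, was lower at day 2 by log2 -0.43 ± 0.07 (2.77e-06), and Kdm8 at day 1 by -0.66 ± 0.22 (0.0175), at 1.09 CPM against 1.72 CPM. Of the KDM5 and LSD demethylases, which act on H3K4, 5 of 6 are in the table and 0 were called on any of the 4 days, with medians between -0.003 and 0.07.

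Further lists hold the enzymes that write the marks removed by the 10 genes, and partner proteins. For H3K9, 1 of 6 methyltransferases was lower at days 0 and 1 and 0 at days 2 and 7, and 0 were higher. Of these, Suv39h2 was lower at day 1 by -0.59 ± 0.19 (adjusted P = 0.012), with overlapping samples. For H3K27, 0 of 6 core PRC2 genes were called at days 0, 1 and 2, and Ezh1 was higher at day 7 by 0.40 ± 0.05 (3.6e-07). Among 5 H3K36 methyltransferases, 1 was lower at days 1 and 2 and 0 at days 0 and 7, with Nsd2 at -0.50 ± 0.08 at day 1 (4.32e-06). Of 9 partners of KDM2B in its Polycomb complex, 1 was higher and 1 lower at day 1 (Bcorl1 the higher, 0.33 ± 0.07, 0.000274), 1 was lower at day 2 (Yaf2, -0.55 ± 0.08, 4.12e-07) and 0 were called at days 0 and 7. Of the KDM6A complex partners, 4 of 5 are in the table, and 1 was lower at day 1 (Paxip1, -0.36 ± 0.06, 1.12e-05), 1 higher at day 2 (Kmt2c, 0.34 ± 0.13, 0.0335) and 0 called at days 0 and 7.

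The last lists are tied to the cofactor and to oxygen, and differ in size from each other. Of 15 genes of 2-oxoglutarate metabolism, which make or use the cosubstrate of these enzymes, 1, 1, 2 and 1 were higher and 1, 4, 8 and 2 lower on days 0, 1, 2 and 7, the background at day 2 being 16.9% higher and 13.6% lower. Psat1, which yields 2-oxoglutarate in serine synthesis, was lower at day 2 by -1.02 ± 0.06 (adjusted P = 1.16e-14), and Idh3a, a subunit of the isocitrate dehydrogenase of the citric acid cycle, at day 1 by -0.86 ± 0.04 (7.5e-16). Gpt2, the mitochondrial alanine aminotransferase, was higher at day 0 by 0.69 ± 0.05 (3.46e-12). The list median at day 2 was -0.35, beside -0.004 for all genes, and in vehicle cells 12 of the 15 were called higher at day 2 than at day 0, where 33.4% of all genes were. Of 12 HIF targets, 3, 2, 2 and 0 were higher and 0, 1, 6 and 5 lower on these days. Ndrg1 was lower at day 7 by -1.57 ± 0.07 (2.38e-16) and Bnip3 at day 2 by -0.997 ± 0.075 (2.1e-12), while Adm was higher at day 2 by 1.20 ± 0.29 (0.000997) at 1.09 CPM against 0.461 CPM. Of 8 other dioxygenases (TET, FTO, ALKBH5 and EGLN), 0 were called at day 0, 1 was higher at day 1, 1 higher and 2 lower at day 2, and 1 higher and 1 lower at day 7. They included Egln3 at day 2 (-0.99 ± 0.09, 1.61e-10), Egln1 at day 7 (-0.53 ± 0.06, 2.81e-08) and Tet1 at day 7 (1.5 ± 0.23, 3.7e-06, 2.27 CPM against 0.794 CPM). No list was tested as a set.

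**Figure D4:**
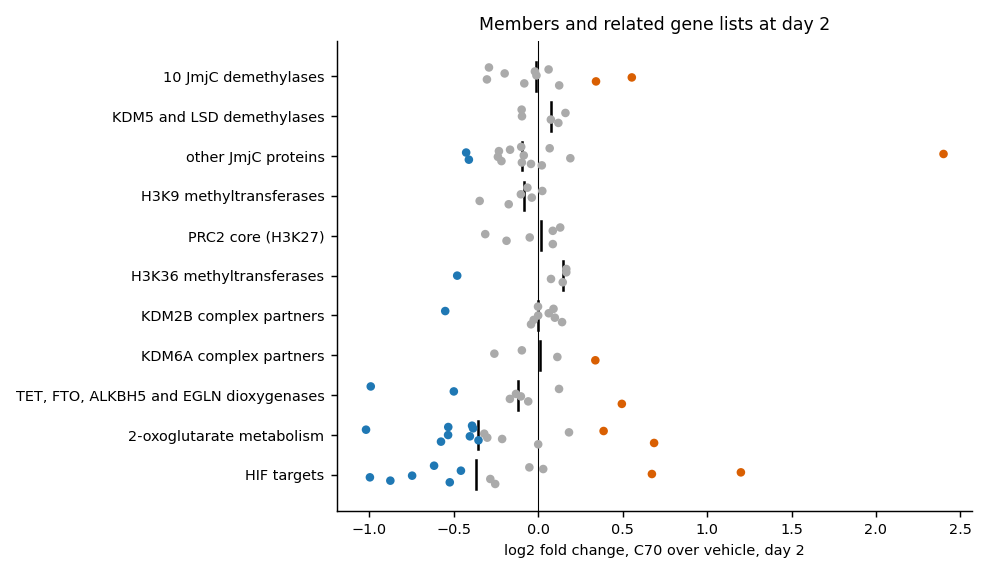
Log2 fold change of C70 over vehicle at day 2 for each gene of the 10 demethylases and of 10 related lists, each point a gene (orange called higher, blue called lower, grey not called) and each black bar the median of a list. The 10 demethylases lie between -0.30 and 0.55 with a median of -0.02, while 8 of 15 genes of 2-oxoglutarate metabolism and 6 of 12 HIF targets are blue.

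The genes whose levels ran most like each demethylase were found by Pearson correlation of log2 CPM over the 29 samples, which share libraries and days. Jmjd1c was most like Dcbld2 (0.98) and Rfx3 (0.98), Kdm3a like Ksr1 (0.98) and Dnmbp (0.98), and Kdm2a like Ago2 (0.97) and Rfx3 (0.97). Kdm2a also had correlations of 0.95 with Jmjd1c and 0.93 with Kdm3a. Kdm4a was most like Cep170 (0.98) and Krba1 (0.98), Kdm4b like Smim5 (0.98) and Mocs1 (0.97), and Kdm4c like Pttg1 (0.95) and Alms1 (0.95). Likeness was lower for Kdm6a, with B230219D22Rik (0.94), and for Kdm2b, with Mgat5 (0.91) and Gcnt2 (0.88). It was lowest for Kdm3b, with Suz12 (0.78) and Cggbp1 (0.76), and Kdm6b, with Foxj2 (0.74) and Manea (0.73), both called in no vehicle comparison.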

How the data were processed

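Strand-specific RNA-seq libraries of 29 3T3-L1 samples were analysed. Alignment by the authors was to GRCm38 (Ensembl release 97) with STAR 2.7.2a. Their deposited values are named normalized counts, but they are whole numbers and were taken here as raw counts. They cover 11959 genes, with low genes already removed: every gene has a CPM above 1 in at least 20 samples. The counting program, its use of strand and the filter are not given in the sources used here. The submitters' processing notes name edgeR 3.26.8, and the authors' published methods name another version. Here symbols, coordinates and merged exon lengths came from GENCODE release M21, and 11953 genes had a symbol.

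Counts of 16320275 to 24037170 per sample were fitted in R 4.3.3 with edgeR 4.0.16 (quasi-likelihood test, trimmed mean of M values scaling, factors 0.898 to 1.08, 8 group means, no covariate). C70 was compared with vehicle on 4 days, vehicle between days in 5 contrasts and the C70 effect between days in 4. The Benjamini-Hochberg adjustment ran over all genes of a comparison, and a gene was called at an adjusted P value under 0.05 together with a change of over 1.25-fold (0.32 on the log2 scale). SEs were derived from the log2 fold change and the F statistic. The common biological coefficient of variation was 0.0594, and replicates differed by more than counting noise (chi-square per degree of freedom 2.65 to 46.7 over 39 pairs).

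The 10 genes and all lists were chosen with earlier results of these data known. Named genes were the 10, the 3 called genes of each list with the largest change under C70 on any day (fewer where fewer were called), and the 2 genes most correlated with each of the 10, with 0.5 CPM added before logarithms, of which 1 is not reported here. Marker genes and overlapping genes were named with the results. Alternatives were other scalings, limma 3.58.1 voom, DESeq2 1.42.0, other thresholds and filters, a replicate block, separate fits per day, and leaving out each library.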

Additional observations from a re-analysis of the deposited data

Results flagged for a closer look

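Of 50 groups of 4 samples, each for 1 of the 10 genes, 4 held a sample far from the other 3, where chance gives about 1 in 20, or 2.5. At day 7, vehicle replicate 1 was far below its group for Kdm2a (182.0 CPM), Kdm3b (70.41 CPM) and Kdm4a (66.75 CPM), and it was the lowest vehicle sample of that day for all 10 genes. At day 1, C70 replicate 1 was below the other 3 C70 samples for Kdm2a (316.0 CPM).

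The C70 effect differed between days, with an adjusted P value under 0.05 for the interaction term of edgeR, in 10 values. From day 0 to day 2 it shifted on the log2 scale by 0.185 for Kdm3a, -0.297 for Kdm3b, 0.306 for Jmjd1c, -0.212 for Kdm4b and -0.369 for Kdm6b. From day 2 to day 7 it shifted by -0.272 for Kdm2b, 0.275 for Kdm3b, 0.309 for Kdm4b and 0.373 for Kdm6b, and from day 0 to day 7 by -0.314 for Kdm2b. Of these, 2 were over the fold threshold, both for Kdm6b.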

How the results depend on the processing

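Of 130 values for the 10 genes, 63 passed the adjusted P value of 0.05, and 0 of these turned sign in 9 alternative fits or without any of the 29 libraries, though 20, all of them uncalled, reached an adjusted P value of 0.05 or more somewhere. Among these, for C70 against vehicle, were Kdm2a at days 1, 2 and 7 and Kdm4a at days 1 and 7. Kdm3a and Jmjd1c at days 0 and 7 and Kdm4b at day 7 were further ones. Of 22 called values, 0 lost the call in those 9 fits and 4 lost it without 1 library, as given in the report. Of the 67 other values, 26 turned sign somewhere, none of them called. With other scalings the median log2 change of all genes ran, over the comparisons, from -0.061 (upper quartile factors) to 0.056 (voom with quantile normalization). With no fold threshold, 2, 5, 6 and 6 genes passed for C70 at days 0, 1, 2 and 7 (19.8%, 40.7%, 50.7% and 41.1% of all genes), 8 and 7 for vehicle at days 2 and 7 from day 0 (79.4% and 85.2%), 7 from day 1 to 2 (61.7%) and 6 from day 2 to 7 (72.6%), and 5, 1 and 4 for the change of the C70 effect between days 0 and 2, 0 and 7, and 2 and 7 (35.7%, 31.8% and 30.3%), the last being 7 without vehicle replicate 1 of day 7 (35.1%). Over 1.5-fold there were 0 for C70 at days 1, 2 and 7 (9.12%, 14.5% and 8.8% of all genes), 1 and 2 for vehicle at days 2 and 7 from day 0 (47.2% and 56.8%), 0 from day 1 to 2 (24.8%), 1 from day 2 to 7 (32.3%), and 0 for the change between days 0 and 2 and days 2 and 7 (13.8% and 9.48%). Without the genes of lowest mean level, C70 called 2 at day 1 (Kdm3a added), 2 at day 7 and 2 for the change between days 2 and 7. For C70 at day 7, Jmjd1c was added to give 2 with RLE factors, voom (TMM or quantile) and DESeq2. Quantile normalization gave 4 in vehicle from day 2 to 7 (Kdm2a and Kdm3a added), 2 for the change between days 0 and 2 (2 also with upper quartile factors) and 1 between days 0 and 7, and RLE factors and DESeq2 gave 2 between days 2 and 7. Leaving out 1 library at a time, counts ranged from 1 to 2 for C70 at day 7 and for the change between days 0 and 2 and days 2 and 7, from 0 to 1 for the change between days 0 and 7, from 3 to 5 for vehicle from day 0 to 7, and from 2 to 3 from day 1 to 2 and from day 2 to 7, and stayed the same for the rest. The count of 2 at day 7 (Jmjd1c added) came without C70 replicate 1 of day 1, vehicle replicate 4 of day 7 or C70 replicate 1 of day 7. That of 2 between days 0 and 2 (Jmjd1c added) came without vehicle replicate 2 of day 0, C70 replicate 1 of day 1, vehicle replicate 2 of day 2 or C70 replicate 2 of day 2. That of 1 between days 0 and 7 (Kdm2b) came without C70 replicate 1 of day 0 or, at day 7, vehicle replicate 1, vehicle replicate 4, C70 replicate 1 or C70 replicate 3. That of 2 between days 2 and 7 was Kdm2b and Jmjd1c without vehicle replicate 1 of day 7, and Kdm4b and Kdm6b without vehicle replicate 3 of day 2, or, at day 7, vehicle replicate 2, vehicle replicate 4 or C70 replicate 2. The cause was not tested.

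With the replicate number as a block, 2 genes were called for C70 at day 7 and 2 for the change between days 2 and 7, and the other counts stayed within 1.5 times. Vehicle and C70 samples with the same number correlated at -0.25 to 0.251 in their deviations, and 2 of 13 vehicle samples correlated best with their own. With so few samples per group this cannot settle whether samples of the same number were paired, and the labels give only the number.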
